A study of Homo sapiens with 12 samples.

Results

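The 36 genes described here belong to the integrated stress response and to the amino acid programme that it controls. They were taken by gene symbol from a list of ATF4 pathway, amino acid synthesis, amino acid transport and tRNA genes, a rule that uses no measured value. The list itself was chosen with earlier results of these data known. All 36 were found among the 19251 genes listed for every library. They comprise 6 transcription factors or co-regulators, 5 stress targets, 6 enzymes of serine and one-carbon metabolism, 7 other amino acid enzymes, 6 amino acid transporters, and 6 genes of tRNA charging and export. RNA sequencing was carried out on 12 libraries from the established ovarian cancer lines CAOV3, labelled epithelial high grade serous, and TOV21G, labelled epithelial clear, both of genotype WT. Each line was either left without treatment or exposed for 16 hours to ovarian cancer ascites, the fluid that collects in the abdomen of patients, at 10% of the medium, giving 4 groups of 3 libraries. Both lines were kept in DMEM with 10% fetal bovine serum and antibiotics, so the control cells also had serum and amino acids from the medium. The labels name no donor or pool of ascites and no separate cultures, so the p-values measure the spread between these libraries only, which may be technical.

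The integrated stress response starts when kinases that sense amino acid shortage, unfolded protein in the endoplasmic reticulum, viral RNA or haem shortage phosphorylate the translation factor eIF2. General protein synthesis then falls while the ATF4 messenger RNA is translated more, so that ATF4 protein can increase with little change in its transcript. ATF4 pairs with C/EBP proteins on a composite DNA element and raises genes for amino acid synthesis, uptake and tRNA charging, and prolonged signalling adds the factor CHOP, encoded by DDIT3.

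That composite element, the C/EBP-ATF response element, has the core TGATGNAA. The core was searched on both strands in the promoter windows of RefSeq (GRCh38.p14), which run from 250 bases before to 50 bases after each annotated start. Of the 36 genes, 29 had a window, and 8 of these 29 (27.6%) held the core in at least 1 window, beside 4.46% of all 27305 genes with a window. Counted by window, it stood in 8 of the 47 windows of these genes and in 3.62% of all 35116 windows. The members were listed as ATF4 pathway genes, so their share with the core is not independent of that choice. The 8 matches are shown because these 8 members hold the core. Each is written 5′ to 3′ along the gene's own strand, with the core in capitals in the sense orientation (TGATGNAA) or in the antisense one (TTNCATCA).
ASNS: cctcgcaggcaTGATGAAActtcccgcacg
CHAC1: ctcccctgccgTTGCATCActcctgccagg
CEBPG: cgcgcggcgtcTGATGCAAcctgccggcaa
SLC1A5: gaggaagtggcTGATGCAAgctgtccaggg
SLC3A2: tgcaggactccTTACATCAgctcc
SLC7A1: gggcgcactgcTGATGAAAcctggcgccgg
AARS1: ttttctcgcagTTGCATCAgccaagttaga
GARS1: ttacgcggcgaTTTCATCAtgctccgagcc
The ASNS window lies at chr7:97872458-97872487 on the minus strand, and its core begins 68 bases before the start. The CHAC1 window lies at chr15:40953251-40953280 on the plus strand, with the core 209 bases before the start and in the antisense orientation. CEBPG (chr19:33374060-33374089, plus strand) and SLC1A5 (chr19:46784893-46784922, minus strand) carried the same 8 letters in the sense orientation, 42 and 97 bases before the start. AARS1 (chr16:70289675-70289704, minus strand) carried the same antisense letters as CHAC1, 187 bases before the start, and GARS1 (chr7:30594834-30594863, plus strand) an antisense core 33 bases before it. In SLC3A2 (chr11:62881725-62881748, plus strand) and SLC7A1 (chr13:29595663-29595692, minus strand) the core lay 37 and 7 bases after the start. All these starts are RefSeq ones, and a gene can have others further upstream. By the gene bounds of GENCODE 29, the cores of ASNS, CHAC1, CEBPG, SLC1A5 and GARS1 also lie inside the annotated gene. The AARS1 core lies outside it. The SLC3A2 window is shorter because it reaches the end of the RefSeq window. A match is a description of the letters and not evidence that the site is bound, and a gene without one may carry an element elsewhere.

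The libraries held between 26697609 and 34491304 reads, and 18153 to 18426 genes had at least 1 read in each. Levels are normalised read counts, that is reads divided by a size factor for the library. The labelled identity was checked on marker genes. PAX8 and WT1, both usual in serous tumours, were at 18.2, 20.4 and 18.8 and at 5.67, 2.15 and 5.94 in the CAOV3 controls, close to absent for a line labelled serous. In the TOV21G controls PAX8 was at 6797, 7309.5 and 6988. Blood cell markers, which could mark cells carried over with ascites, did not separate the groups: 4 of 6 leukocyte genes were listed, with sums of 206 to 229 in CAOV3 controls and 184 to 237 with ascites, and 22.8 to 35.0 against 24.0 to 31.0 in TOV21G, where LYZ was at 0 in all 6 libraries. The sum of 3 fibroblast genes was lower with ascites without overlap in both lines, from 4198 to 4902 down to 3785 to 3993 in CAOV3, and from 12540 to 13080 down to 11260 to 11690 in TOV21G. Of these, COL1A2 was called in CAOV3, where it had at most 2.97 in any library, and none was called in TOV21G. PAX8 was at 8749, 8464 and 9342 with ascites in TOV21G, above all its controls, and did not pass (limma, adjusted p = 0.161). The part of these markers in the members' values was not tested. In bulk RNA, fewer cells with a transcript and less of it per cell cannot be told apart.

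After exposure of CAOV3 to ascites 1 of the 36 genes passed the test, and the fitted log2 differences of the other 35 ran from -0.77 to 0.35. STC2, which encodes stanniocalcin 2, a secreted glycoprotein induced by stress of the endoplasmic reticulum, rose 1.24-fold (ENSG00000113739, at chromosome 5, 173314713 to 173329503, minus strand, in GENCODE 29 on GRCh38). It was counted at 4307, 4352 and 4569 in the CAOV3 controls and 5495, 5293 and 5590.1 in the CAOV3 ascites libraries. All 3 ascites libraries lay above all 3 controls. The log2 difference was 0.31 (SE 0.05, adjusted p = 0.00642) by limma, with a 95% interval of 0.20 to 0.42. Among all 17616 genes tested, 1.73% were called in this comparison (0.636% higher and 1.1% lower), so 1 of 36 (2.78%) is near the background. STC2 was called in all 22 alternative settings, with adjusted p between 7.08e-07 and 0.0398.

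Most of the other members had small fitted differences in CAOV3 that did not pass the test. The fitted difference was above 0 in 23 of 36, beside 47.7% of all genes tested, and the median over the 36 was a log2 difference of 0.0459, beside -0.00207 over all genes. In 17 of the 36 (47.2%) every ascites library exceeded every control library, beside 11.4% of all genes, and in 4 of 36 every ascites library lay below, beside 12.8%. Among the 6433 genes with a mean normalised count of at least 1000, 19.3% lay above in this way, and 14 of the 29 members at that level did. With TMM scaling the counts were 16 higher and 4 lower, beside 11.3% and 13.0% of all genes. At an unadjusted p under 0.05, 9 members were higher and 2 lower, beside 5.73% and 7.22% of all genes.

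Among the regulators, CEBPB, a C/EBP partner of ATF4, was counted at 1720.5, 1680.2 and 1538 in the CAOV3 controls and 1922, 1837 and 2003 in the CAOV3 ascites libraries. The groups did not overlap, but the log2 difference of 0.22 (SE 0.07, adjusted p = 0.155) did not pass limma's threshold. CEBPB was called beside STC2 by edgeR (log2 difference 0.22), by DESeq2 (0.22) and with length and GC trends removed (0.19), settings that called 1.15%, 0.999% and 0.749% of all genes higher. DDIT3, which encodes CHOP, was counted at 144, 142 and 149 in the CAOV3 controls and 189, 189 and 177 in the CAOV3 ascites libraries. Its 3 ascites libraries were the higher ones, and the log2 difference was 0.35 (SE 0.13, adjusted p = 0.258). ATF4 itself stood at 7118, 7137 and 7118 in the CAOV3 controls and 7282, 7371 and 7507 in the CAOV3 ascites libraries. All of its ascites libraries lay just above the controls, with a log2 difference of 0.05 (SE 0.05, adjusted p = 0.743) and an interval of -0.06 to 0.16. ATF5, CEBPG and the stress co-regulator NUPR1 overlapped between the groups, and NUPR1 was at 6.81, 0 and 5.94 in the controls.

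Of the stress targets, CHAC1, whose product degrades glutathione, was counted at 163, 144 and 150.4 in the CAOV3 controls and 177, 184 and 204 in the CAOV3 ascites libraries. Its ascites libraries were all above the controls, at a log2 difference of 0.30 (SE 0.10, adjusted p = 0.202). TRIB3, a pseudokinase that restrains ATF4 and CHOP, was at 775, 793 and 742 in the CAOV3 controls and 843, 811 and 808 in the CAOV3 ascites libraries, also without overlap, at 0.09 (SE 0.05, adjusted p = 0.504) on the log2 scale. SESN2 and DDIT4, both restraints on the growth kinase mTORC1, overlapped, with log2 differences of 0.07 and -0.06.

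The transporters held 5 of the 17 members that separated upwards. SLC3A2, the shared heavy chain of several amino acid exchangers, was counted at 7509.7, 7429.5 and 6939.7 in the CAOV3 controls and 8199, 8168 and 8278 in the CAOV3 ascites libraries. SLC7A5, the light chain that pairs with it to import leucine, was counted at 12905, 13185 and 12615 in the CAOV3 controls and 14500.0, 14416 and 14684 in the CAOV3 ascites libraries. Both separated fully, SLC3A2 at a log2 difference of 0.17 (SE 0.05, adjusted p = 0.166) and SLC7A5 at 0.17 (SE 0.06, adjusted p = 0.201) in limma. The glutamine carrier SLC1A5 was at 16100.0, 16160.0 and 15661 in the CAOV3 controls and 17731, 17461 and 18199 in the CAOV3 ascites libraries, also separated, at 0.16 (SE 0.05, adjusted p = 0.215). SLC7A11, the cystine carrier, was at 1371, 1407 and 1372 in the CAOV3 controls and 1505, 1445 and 1553 in the CAOV3 ascites libraries, at 0.12 (SE 0.09, adjusted p = 0.65). The arginine and lysine carrier SLC7A1 separated at a log2 difference of 0.06, and the neutral amino acid carrier SLC38A2 overlapped. None of the 6 passed the threshold.

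The enzymes had values on both sides of 0, none of them called. CTH, which makes cysteine from cystathionine, was counted at 214, 215 and 191 in the CAOV3 controls and 169.6, 179.9 and 161 in the CAOV3 ascites libraries. ALDH1L2, a mitochondrial folate enzyme, was counted at 1665, 1744 and 1889 in the CAOV3 controls and 1562, 1608 and 1511 in the CAOV3 ascites libraries. Both lay below their controls in every library, CTH at a limma log2 difference of -0.28 (SE 0.09, adjusted p = 0.171) and ALDH1L2 at -0.18 (SE 0.05, adjusted p = 0.103). PHGDH, the first enzyme of serine synthesis, and PCK2, the mitochondrial phosphoenolpyruvate carboxykinase, were the other 2 that separated downwards, at -0.10 and -0.08. MTHFD2, another mitochondrial folate enzyme, was counted at 5393, 5378 and 5555 in the CAOV3 controls and 5930.2, 5883 and 5736 in the CAOV3 ascites libraries, and ALDH18A1, which starts proline synthesis, differed by 0.11. Both of these separated upwards, as did SHMT2 at 0.05. PSAT1, PSPH, PYCR1, GPT2 and CBS overlapped. ASNS, which makes asparagine and is a classical ATF4 target, was at 45.4, 49.5 and 30.7 in the CAOV3 controls and 50.3, 51.1 and 54.2 in the CAOV3 ascites libraries, at a log2 difference of 0.33 (SE 0.24, adjusted p = 0.622). These ASNS values are uncertain, because GENCODE 29 places a second gene over its whole length on the same strand, and how shared reads were counted is not given in the sources used here. Parts of ATF5, DDIT3, PYCR1, CTH and SLC7A5 are also overlapped by an annotated gene on the same strand, and SLC7A5 has pseudogenes, so small differences in these genes carry the same doubt. Among the tRNA genes the log2 differences ran from -0.02 to 0.06, with WARS1 and the tRNA exporter XPOT separated upwards and the 4 others overlapping.

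**Figure D1:**
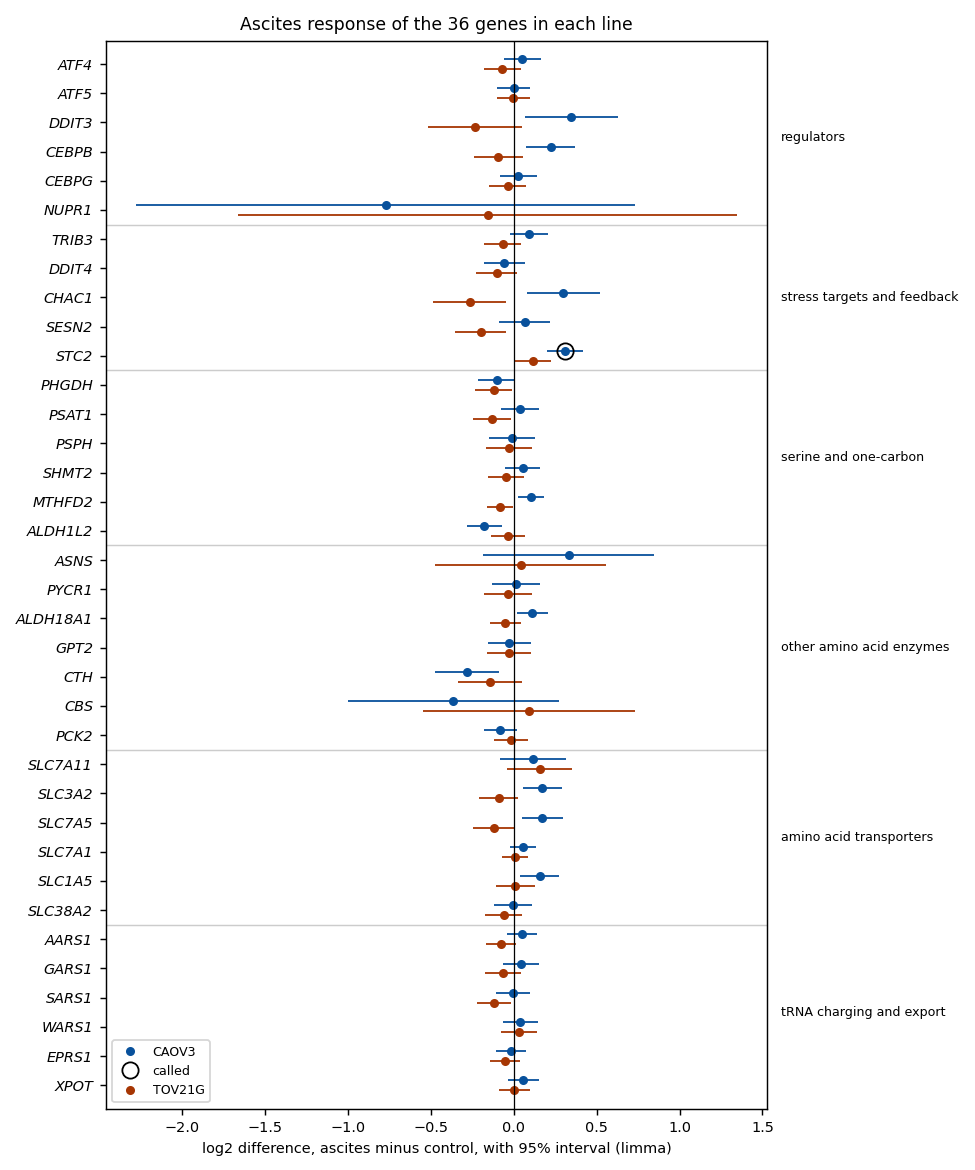
Log2 difference between ascites and control libraries for the 36 genes (x axis, limma estimate with its 95% interval) in CAOV3 (blue) and TOV21G (brown), grouped by role on the y axis; a black ring marks a called gene. STC2 in CAOV3 is the only ringed gene, and most other intervals of both lines include 0.

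More members were called in CAOV3 when the line was fitted alone. On its 6 libraries, with the filter on low values applied to them, limma tested 15808 genes, 34 members among them, and called 8 members, with ALDH18A1, CEBPB, DDIT3, SLC1A5, SLC3A2, SLC7A5 and STC2 higher and ALDH1L2 lower. In that fit 8.19% of all genes were called, 3.63% higher and 4.56% lower. Some epithelial markers differed in the same libraries. KRT8 and KRT18 rose with ascites, by 0.29 and 0.33 on the log2 scale (limma, adjusted p = 0.0231 and 0.0102), and they carry the summed level of 5 epithelial genes, which ran from 131700 to 132800 in controls and from 153300 to 162600 with ascites. EPCAM, KRT19 and CDH1 were not called, and CDH1 lay lower in every ascites library, at 455, 389 and 429.5 in the CAOV3 controls and 266, 268 and 281 in the CAOV3 ascites libraries. The part of this in the members' values was not tested.

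In TOV21G none of the 36 genes passed the test, beside 0.409% of all genes called (25 higher and 47 lower). The count was also 0 by edgeR and by DESeq2, which called 0.647% and 0.806% of all genes, and in the other alternatives run. At an unadjusted p under 0.05, limma gave 1 member higher and 6 lower, beside 3.79% and 5.38% of all genes. The fitted difference was below 0 in 28 of 36, beside 56.1% of all genes, with a median of -0.0558 beside -0.0178. The groups were separate in 2 members, both lower with ascites (5.56%, beside 6.99% of all genes), and in none higher (beside 4.16%). With TMM scaling 4 members separated downwards and 1 upwards, beside 6.44% and 5.78% of all genes.

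SESN2 was counted at 1062, 980.3 and 1078 in the TOV21G controls and 882, 972 and 864 in the TOV21G ascites libraries, and CHAC1 at 203, 191 and 219 in the TOV21G controls and 186, 166 and 157 in the TOV21G ascites libraries. These were the 2 members whose ascites libraries all lay below the controls. SESN2 differed by -0.20 (SE 0.07, adjusted p = 0.411) and CHAC1 by -0.27 (SE 0.10, adjusted p = 0.451) on the log2 scale in limma. STC2 was at 1903, 1695 and 1664 in the TOV21G controls and 1909.9, 1952 and 1836 in the TOV21G ascites libraries. The first control lay within the ascites range, and the log2 difference was 0.12 (SE 0.05, adjusted p = 0.508). DDIT3 stood at 109, 112 and 144 in the TOV21G controls and 118, 105 and 87.7 in the TOV21G ascites libraries, with 1 control above all other libraries and a log2 difference of -0.23 (SE 0.13, adjusted p = 0.615). ATF4 was at 5977, 5192 and 5437 in the TOV21G controls and 5206, 5606 and 5022 in the TOV21G ascites libraries and TRIB3 at 1515, 1349 and 1373 in the TOV21G controls and 1372, 1384 and 1287 in the TOV21G ascites libraries. Both overlapped, at -0.07 and -0.07 on the log2 scale.

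The first 2 enzymes of serine synthesis had nominally lower values in TOV21G. PHGDH was counted at 1612, 1504 and 1480.4 in the TOV21G controls and 1429.5, 1511 and 1295 in the TOV21G ascites libraries, and PSAT1 at 5853, 4957 and 5357 in the TOV21G controls and 4899, 5124 and 4705 in the TOV21G ascites libraries. Each overlapped by 1 or more libraries, PHGDH at a log2 difference of -0.12 (SE 0.05, adjusted p = 0.51) and PSAT1 at -0.13 (SE 0.05, adjusted p = 0.477) in limma. SARS1, which charges the serine tRNA, was at 3710.3, 3444 and 3586 in the TOV21G controls and 3301, 3512 and 3089 in the TOV21G ascites libraries, at -0.12 (SE 0.05, adjusted p = 0.486). MTHFD2 was the remaining nominally lower member, at -0.08. SLC7A11 was at 802, 1062 and 1049.8 in the TOV21G controls and 1063, 996 and 1170.5 in the TOV21G ascites libraries, with the first control the lowest library and a log2 difference of 0.16 (SE 0.09, adjusted p = 0.621). ASNS was at 29.3, 28.3 and 17.9 in the TOV21G controls and 30.6, 21.2 and 25.1 in the TOV21G ascites libraries, with full overlap and the same uncertainty as in CAOV3. Over the remaining members the log2 differences stayed between -0.16 for NUPR1, at 50.5, 51.3 and 41.2 with ascites, and 0.09 for CBS.

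**Figure D2:**
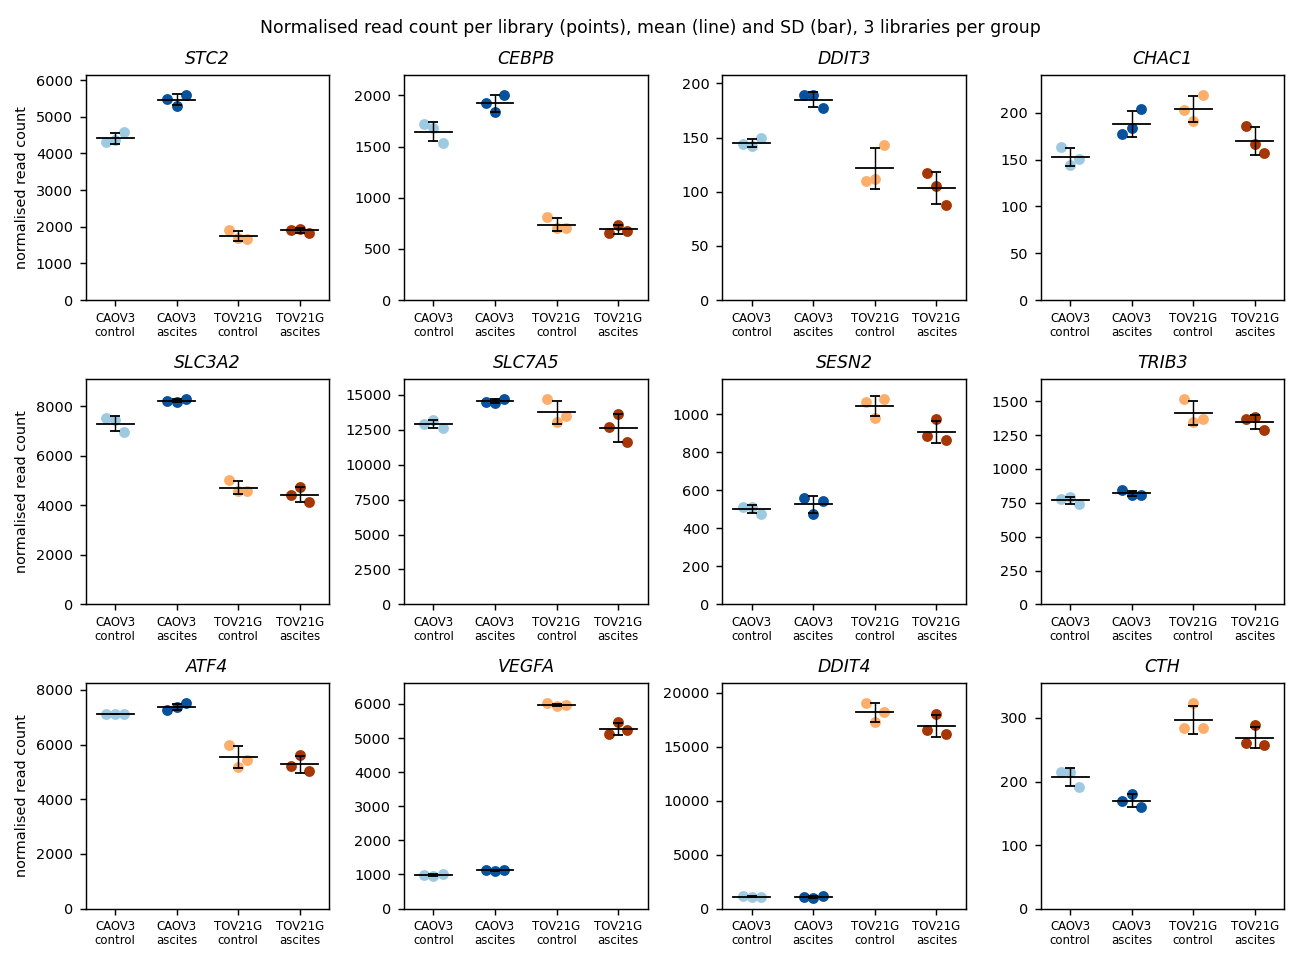
Normalised read count (y axis, from 0) in each of the 12 libraries for 11 of the 36 genes and for VEGFA; points are libraries, the line is the group mean and the bar 1 SD, n = 3 per group. STC2, CEBPB, DDIT3, CHAC1, SLC3A2, SLC7A5, TRIB3, ATF4 and VEGFA separate upwards with ascites in CAOV3, and CTH separates downwards. In TOV21G SESN2, CHAC1 and VEGFA separate downwards.

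Some TOV21G libraries stood apart from their groups, in all genes as well as in the members. The median over the 36 genes, relative to the mean of the line's controls, was 0.0746, -0.0627 and -0.0071 in the TOV21G controls and -0.0484, -0.00808 and -0.105 in the ascites libraries. Over the 11417 genes above 100 normalised counts it was 0.0405, -0.0396 and 0.00438 in the controls and -0.0347, 0.0116 and -0.0697 with ascites, likewise highest in the first control and lowest in the third ascites library. In CAOV3 the same median was 0.0413, 0.0435 and 0.0508 with ascites, and the controls lay between -0.00101 and 0.000458. Nuclear RNA moved with these values. MALAT1, a long RNA retained in the nucleus, was at 14363, 36224 and 22591 in the TOV21G controls and 37574, 21436 and 66860.0 in the TOV21G ascites libraries. The library with the least MALAT1 had the highest median of the 36 genes, and the one with the most had the lowest. The summed level of MALAT1, NEAT1 and KCNQ1OT1 ran from 17230 to 42510 in the TOV21G controls and from 25780 to 76240 with ascites, against 24730 to 26440 and 24190 to 27760 in CAOV3. One axis held 50.5% of the variance within TOV21G groups, against 31.2% for the first axis in CAOV3. The part of these libraries in the TOV21G result was not tested.

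**Figure D3:**
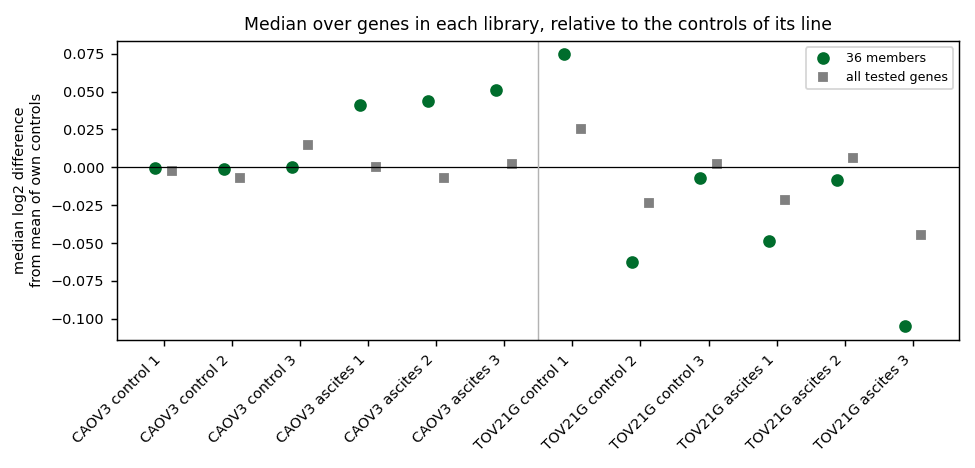
Median log2 difference from the mean of the same line's controls (y axis) in each library (x axis), over the 36 genes (green circles) and over all 17616 genes tested (grey squares). The 3 CAOV3 ascites libraries sit between 0.0413 and 0.0508 for the 36 genes, whereas the TOV21G groups overlap.

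The response of TOV21G minus that of CAOV3 was then tested as an interaction. None of the 36 genes passed it in limma, beside 0.545% of all genes, and by edgeR, with 0.84% of all genes called, the count was also 0. At an unadjusted p under 0.05, 10 members were lower and 0 higher, beside 6.6% and 5.27% of all genes, and 30 of 36 fitted values were below 0, beside 52.8%. CHAC1 had the smallest p, with a log2 difference of -0.57 (SE 0.14, adjusted p = 0.134) and an interval of -0.87 to -0.26. It was the 1 member that separated upwards in CAOV3 and downwards in TOV21G, as did 0.505% of all genes. SLC7A5 differed by -0.29 (SE 0.08, adjusted p = 0.195). In TOV21G it was counted at 14671, 13077 and 13470.0 in the TOV21G controls and 12702, 13609 and 11629 in the TOV21G ascites libraries, with the highest library a control and the lowest an ascites library. DESeq2 called the difference, at a log2 difference of -0.29 and an adjusted p of 0.0223, beside 0.585% of all genes called lower by that tool. MTHFD2, SLC3A2, CEBPB and DDIT3 followed, at -0.19, -0.26, -0.32 and -0.58, with adjusted p between 0.196 and 0.264. ATF4 differed by -0.12 with an interval of -0.28 to 0.04. In 16 of 36 members (44.4%) the fitted value was above 0 in CAOV3 and below 0 in TOV21G, as in 5109 of the 17616 genes tested.

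The 2 lines differed far more from each other than either did after ascites. In the untreated libraries 32 of 36 members passed the test, 11 higher and 21 lower in TOV21G, beside 82.2% of all genes (40.8% higher and 41.4% lower), so the count of members called is near the background. Of the 36, 12 were called with a difference of at least 1 on the log2 scale, beside 42.3% of all genes tested. CBS and NUPR1 reached the filter on low values only through TOV21G. Without them 30 of 34 members were called, 9 higher and 21 lower, and 10 of the 34 were called with a difference of at least 1. The median log2 difference over the 36 was -0.344, beside -0.0193 over all genes.

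Of the 5 stress targets 4 were higher in TOV21G. DDIT4 (ENSG00000168209), whose product REDD1 restrains mTORC1, was counted at 1120.2, 1055 and 1110.4 in the CAOV3 controls and 18991, 17271 and 18238 in the TOV21G controls. That is a 16.6-fold higher level in TOV21G, a log2 difference of 4.05 (SE 0.06, adjusted p = 1.23e-15) by limma. SESN2 was counted at 513, 512 and 477 in the CAOV3 controls and 1062, 980.3 and 1078 in the TOV21G controls, a log2 difference of 1.05 (SE 0.07, adjusted p = 6.59e-09). TRIB3 and CHAC1 were also higher in TOV21G, by 0.87 and 0.42 on the log2 scale. STC2 was the exception, at 4307, 4352 and 4569 in the CAOV3 controls and 1903, 1695 and 1664 in the TOV21G controls, and was lower in TOV21G, with a log2 difference of -1.33 (SE 0.05, adjusted p = 1.56e-11).

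Of the regulators, ATF4 was lower in TOV21G, at 7118, 7137 and 7118 in the CAOV3 controls and 5977, 5192 and 5437 in the TOV21G controls, a log2 difference of -0.37 (SE 0.05, adjusted p = 1.72e-05). CEBPB was counted at 1720.5, 1680.2 and 1538 in the CAOV3 controls and 811, 701 and 701 in the TOV21G controls, a log2 difference of -1.16 (SE 0.07, adjusted p = 1.56e-09). CEBPG was lower as well, at a log2 difference of -0.54. NUPR1 was scarce in CAOV3, with 12 reads over the 3 controls beside 158 in TOV21G, a ratio of 12.4 with a counting interval of 6.91 to 24.5. ATF5 and DDIT3 did not pass, with intervals of -0.19 to 0.01 and -0.55 to 0.02. DDIT3 was called, at -0.39, without the third TOV21G control, its highest library.

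The serine pathway was split between its steps. PHGDH was counted at 3679, 3641 and 3759.8 in the CAOV3 controls and 1612, 1504 and 1480.4 in the TOV21G controls and SHMT2, which converts serine to glycine in mitochondria, at 10338, 10219 and 9991 in the CAOV3 controls and 4803, 4201 and 4388 in the TOV21G controls. Both were lower in every TOV21G library than in any CAOV3 one, PHGDH at -1.27 (SE 0.05, adjusted p = 3.54e-11) and SHMT2 at -1.19 (SE 0.05, adjusted p = 4.02e-11) on the log2 scale. PSPH, the last step of serine synthesis, was counted at 590.1, 597 and 547 in the CAOV3 controls and 1552, 1338 and 1434 in the TOV21G controls and was higher in TOV21G by 1.31 (SE 0.06, adjusted p = 2.26e-10). PSAT1, MTHFD2 and ALDH1L2 were lower too, at log2 differences of -0.25, -0.53 and -0.47. A pseudogene of PSPH in the genome makes its count uncertain.

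Among the other amino acid enzymes, 4 were higher and 3 lower in TOV21G. CBS, which joins serine and homocysteine on the way to cysteine, had 1 read in the 3 CAOV3 controls and 192 in those of TOV21G, a ratio of 181 with a counting interval of 32.1 to 7190.0. It has a near-identical copy, CBSL, so its count is uncertain. CTH, the next step, was higher by 0.52 (SE 0.09, adjusted p = 0.000102). GPT2, the mitochondrial alanine aminotransferase, was counted at 2024, 2107 and 2196 in the CAOV3 controls and 875, 811 and 781 in the TOV21G controls and was lower, at -1.36 (SE 0.06, adjusted p = 8.07e-11). ALDH18A1 and PCK2 were higher by 0.48 and 0.32, and PYCR1 was lower at -0.44. ASNS was lower at -0.71 (SE 0.24, adjusted p = 0.0138). Its call was lost without the second CAOV3 control (log2 difference -0.58) and without the third TOV21G control (-0.50).

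Of the 6 transporters, 4 were lower in TOV21G and none was higher. SLC1A5 was counted at 16100.0, 16160.0 and 15661 in the CAOV3 controls and 8485, 7626 and 7793 in the TOV21G controls, a log2 difference of -1.005 (SE 0.05, adjusted p = 6.36e-10). SLC38A2, SLC3A2 and SLC7A11 differed by -0.79, -0.63 and -0.52. SLC7A5 and SLC7A1 overlapped between the lines, with intervals of -0.03 to 0.21 and -0.13 to 0.02. With length and GC trends removed SLC7A1 was called lower, at -0.11. XPOT was counted at 10387, 10346 and 10781 in the CAOV3 controls and 5343, 4764 and 5031 in the TOV21G controls, a log2 difference of -1.06 (SE 0.04, adjusted p = 3.27e-11). The synthetase genes AARS1, GARS1, SARS1 and EPRS1 were lower too, between -0.78 and -0.14, and WARS1, for tryptophan, was higher by 0.51.

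**Figure D4:**
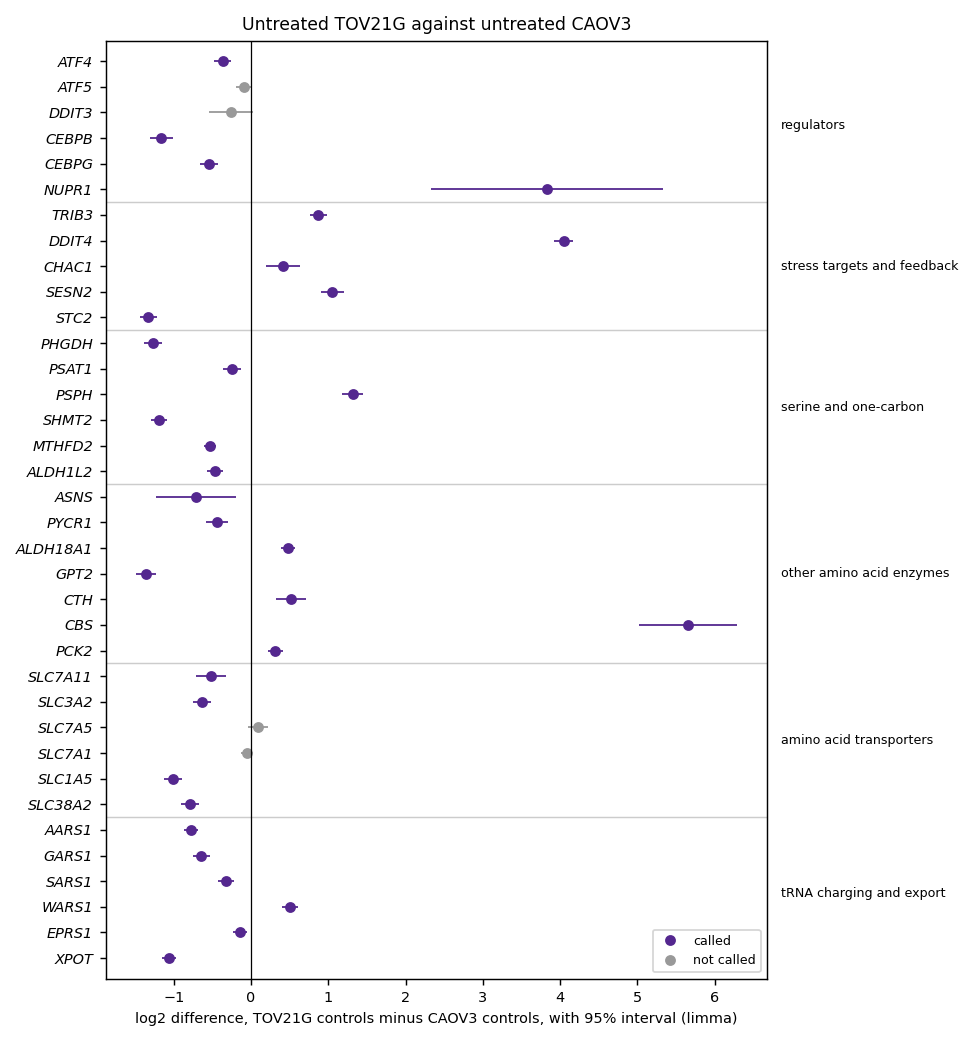
Log2 difference between untreated TOV21G and untreated CAOV3 (x axis, limma estimate with its 95% interval) for the 36 genes, by role on the y axis; purple genes were called and grey genes were not. CBS, DDIT4 and NUPR1 lie above 3, and 21 called genes lie below 0.

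Further genes of the pathway were read from lists fixed by role: 90 were given, 84 were listed and all 84 were tested. With ascites limma called 1 of 84 (1.19%) in CAOV3, beside 1.73% of all genes, and 0 of 84 in TOV21G, beside 0.409%. In the difference between lines it called 1 of 84 (1.19%), beside 0.545%. VEGFA was the gene called in both cases. At an unadjusted p under 0.05, 9 were higher and 5 lower in CAOV3, beside 5.73% and 7.22% of all genes. In TOV21G 2 were higher and 7 lower, beside 3.79% and 5.38%. There edgeR called 0, and calls by DESeq2 included SLC43A2 (-0.26) and VEGFA. VEGFA encodes the angiogenic factor that ATF4 and hypoxia both induce. It was counted at 992, 949 and 1024 in the CAOV3 controls and 1129, 1109 and 1141 in the CAOV3 ascites libraries, and it rose by 0.19 (SE 0.04, adjusted p = 0.0252) on the log2 scale. In TOV21G it was at 6014, 5943 and 5963 in the TOV21G controls and 5111, 5466 and 5242 in the TOV21G ascites libraries, and the value of -0.18 (SE 0.04, adjusted p = 0.0813) did not pass in limma. Neither line's groups overlapped, and the difference in response was -0.37 (SE 0.05, adjusted p = 0.0093). The CAOV3 call was lost in 6 of 12 fits that each left out 1 library: any of the 3 ascites libraries, the first or second control of CAOV3, or the third control of TOV21G, with log2 differences from 0.16 to 0.20. DESeq2 called the TOV21G value of VEGFA, at -0.18, and so did limma without the second TOV21G ascites library, at -0.21.

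The 18 genes of the eIF2 kinases, eIF2, its exchange factor and phosphatase had log2 differences between -0.18 and 0.15 with ascites in CAOV3, and between -0.08 and 0.07 in TOV21G, and the main limma fit called none. EIF2S1, a subunit of eIF2, was called higher in CAOV3 by edgeR (0.15, adjusted p = 0.0479), by DESeq2 (0.15, adjusted p = 0.0412), with TMM scaling and with the line fitted alone. EIF2S3 was called with the line fitted alone only. At baseline 12 of the 18 were lower and 4 higher in TOV21G, beside 41.4% and 40.8% of all genes, so the 88.9% called is near the background. PPP1R15A, a stress-induced subunit of the eIF2 phosphatase, was counted at 2536, 2609.5 and 2734 in the CAOV3 controls and 419, 420.4 and 389 in the TOV21G controls. It was lower in TOV21G, at a log2 difference of -2.68 (SE 0.05, adjusted p = 8.37e-15) in limma. IMPACT, an inhibitor of the amino acid sensing kinase GCN2, was higher by 1.50 (SE 0.06, adjusted p = 2.95e-11).

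A further list held 18 genes outside the 36, cytosolic tRNA synthetases and the scaffold genes AIMP1, AIMP2 and EEF1E1. In TOV21G controls 17 of the 18 were lower and 1 higher, beside 41.4% and 40.8% of all genes. FARSA, a subunit of the phenylalanine enzyme, was lower at a log2 difference of -1.35. In CAOV3 with ascites 8 of these 18, AIMP1 and AIMP2 among them, separated upwards and 0 downwards, beside 11.4% and 12.8% of all genes. Among genes with a mean normalised count of at least 1000, 19.3% separated upwards. The main limma fit called none of the 18. With the line fitted alone FARSA (adjusted p = 0.00859) and RARS1 (adjusted p = 0.021) were called higher by limma. That fit called 3.63% of all genes higher and 4.56% lower. From the other further lists it called SDF2L1 (0.21), SLC25A32 (0.16) and VEGFA (0.19) higher, beside EIF2S1 and EIF2S3. It called GLUL (-0.16) and HERPUD1 (-0.22) lower, with limma adjusted p of 0.00696 and 0.000928. Of 10 genes in the other arms of the unfolded protein response, 8 were higher in TOV21G controls and 0 lower, beside 40.8% and 41.4% of all genes. EDEM1, which sends misfolded glycoproteins to degradation, was higher by 2.33 (SE 0.04, adjusted p = 8.58e-15), and the chaperone DNAJB9 by 1.25 (SE 0.06, adjusted p = 3.06e-10).

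Several transport and metabolic genes of the lists differed most between the lines. GLDC, which cleaves glycine, had 38 reads in the CAOV3 controls and 5754 in those of TOV21G, a ratio of 143 with a counting interval of 104 to 202. SLC1A3, a glutamate carrier, had 923 reads in CAOV3 controls and 3 in TOV21G, a ratio of 326 with an interval of 111 to 1580.0. SLC1A1, another glutamate carrier, was the reverse, at 43.1, 34.4 and 31.7 in the CAOV3 controls and 1911, 1718 and 1731 in the TOV21G controls. NIBAN1, a stress-induced gene, was counted at 146, 127 and 115 in the CAOV3 controls and 7865, 8458 and 8412 in the TOV21G controls, and SLC43A1, a leucine carrier, at 1292, 1326 and 1202 in the CAOV3 controls and 39, 32.5 and 46.7 in the TOV21G controls. In limma the log2 differences were 5.59, 5.99 and -4.99, with adjusted p no higher than 1.09e-12. SFXN1, GOT1 and ASS1 were lower in TOV21G, at -1.29, -1.28 and -1.36, with ASS1 at only 8.67, 6.29 and 9.87 in TOV21G. Baseline calls over the lists came to 28 higher and 50 lower of 84 (92.9%), beside 82.2% of all genes. ASS1 and SLC1A3, among the 50, reached the filter on low values only through CAOV3.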

How the data were processed

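The RNA selection, the genome build, the annotation and the strand setting are not given in the sources used here. Per the submitters' processing notes, reads were handled with Trim Galore, cutadapt, STAR, HTSeq and DESeq. The deposited signal per gene has, from its values, the form of reads scaled by 1 factor per library. Every value was a whole multiple of 1 step within 0.001 reads, so reads were recovered (26697609 to 34491304 per library) and used for edgeR 4.0.16 and DESeq2 1.42.0 as alternatives. The main test was limma 3.58.1 (R 4.3.3, trended variance) on log2(value + 1) over all 12 libraries with 1 mean per group. Genes at 10 or more in at least 3 libraries were tested (17616), p-values were adjusted by Benjamini-Hochberg over all of them, and calls needed an adjusted value below 0.05. A fold change on this scale understates changes of low genes. Counting intervals are 95% and cover counting error only. Other pseudocounts, filters, scalings, fits and left-out libraries were tried as alternatives; the TMM scaling of library separation and the background of genes at 1000 or more were added after seeing the data. The fit was tested on simulated data. The members and the further lists were chosen with earlier results of these data known. Named genes are the called members, those with the smallest p up to 6 per ascites comparison, baseline calls of at least 1 on the log2 scale, members not called at baseline, key members (ATF4, DDIT3, CHAC1, TRIB3, ASNS and SLC7A11), called further genes and the 2 largest baseline differences per further list; other names were added after their values were seen. A few genes that these rules name are not reported here. Symbols and sequences came from GENCODE 29 and RefSeq tables.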

Additional observations from a re-analysis of the deposited data

Results flagged for a closer look

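The response of VEGFA to ascites differed between the lines by a log2 difference of -0.37 (TOV21G minus CAOV3, limma interaction, adjusted p = 0.0093), with all 3 ascites libraries above the controls in CAOV3 and all 3 below them in TOV21G. It was called in 20 of the 21 alternatives that gave a value, the exception being the fit with the replicate number as a block.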

How the results depend on the processing

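Of 1243 values for named genes under 22 alternatives, 1220 stayed on the same side of the threshold, 10 lost a call and 13 gained one. The count of reversed calls was 0. Values that were not called could still change sign. ASNS in TOV21G ran from -0.18 to 0.16, and SLC7A11 in the difference between lines from -0.09 to 0.11. The replicate numbers were not shown to pair the samples (correlations of deviations from -0.07 to 0.06 in CAOV3 and from -0.42 to 0.07 in TOV21G). The fit with the replicate block called 116 genes in CAOV3, 13 in TOV21G and 9 in the difference, against 305, 72 and 96 without it; STC2 stayed called and the VEGFA calls were lost (difference between lines, adjusted p = 0.119). Fitting a line alone called 1295 genes in CAOV3, with 7 members higher and 1 lower, and 22 in TOV21G. With edgeR the counts were 511, 114 and 148, and with DESeq2 466, 142 and 178, with 2 members higher in CAOV3 by each; DESeq2 called 1 member lower in the difference. TMM scaling gave 151 genes in the difference, and removing length and GC trends 2 members higher in CAOV3. Leaving out 1 library gave 162 to 345 genes in CAOV3, 24 to 137 in TOV21G and 35 to 147 in the difference. The lowest counts came without the second CAOV3 ascites library, the third TOV21G control and the first CAOV3 ascites library, and the last 2 maxima without the second TOV21G ascites library. Members called in CAOV3 stayed at 1 in all 12 of these fits, and the baseline counts of members were 11 higher and 20 to 21 lower. The causes were not tested. Low counts limit the comparisons of CBS and NUPR1 in CAOV3 and of ASNS in both lines.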

Other observations

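The gene that GENCODE 29 places over ASNS (ENSG00000284707, chromosome 7, 97851688 to 97972985, minus strand) was itself counted at 3.07 to 8.91 in CAOV3 libraries and at 15.9 to 35.6 in TOV21G libraries. ASNS (97852118 to 97872542) was counted at 17.9 to 54.2 over all 12 libraries.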
